A study of Mus musculus with 22 samples.

Results

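The OvSvK time course consists of 5 of the 22 libraries of the series, 1 each for days 0, 1, 2, 3 and 4, chosen by their labels. All 5 came from OG2 transgenic mouse embryonic fibroblasts at passage P2, of mixed 129SVJ, C57B6 and CBA strain, that had been transfected for 2 days with OvSvK and then kept for the number of days in the label. OvSvK is Oct4 fused to VP16 (Ov), Sox2 fused to VP16 (Sv) and Klf4 (K). VP16 is the strong transcriptional activation domain of a viral protein, and OG2 is a reporter transgene in which green fluorescent protein is driven by regulatory DNA of Oct4. The series describes this system as yielding reprogrammed cells, able to contribute to chimeras and the germline, within 4 days. The labels do not say which vector carried the factors or how they were delivered, and no pooling of animals is described. The day 0 cells had already been through the 2 days of transfection, so the series of days starts from transfected cells and not from untreated fibroblasts. Each day is 1 library, with no replicate.

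Oct4 (gene Pou5f1), Sox2 and Klf4 are transcription factors that can return a differentiated cell to pluripotency, the state of the early embryo from which all body tissues arise. In fibroblasts the process is known to begin with loss of the fibroblast programme and of contractile and matrix genes, together with faster division and a shift from a mesenchymal to an epithelial form. The network of an embryonic stem cell (Nanog, Esrrb, Dppa genes and others) is usually switched on last.

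Expression was measured by RNA sequencing, with expected counts and TPM (a level per transcript length, scaled to the same sum in each library) as deposited. Totals ran from 8807743 counts on day 0 to 17783282 on day 1. Levels of 1 gene over days are given below as CPM, counts scaled to a common library total that is first adjusted by TMM, a factor that offsets differences in composition. The day 0 library stood apart from the other 4. It was the shallowest, its log2 CPM correlated with day 1 at r = 0.927 across genes against 0.982 to 0.984 for the later neighbouring pairs, and its genes in the lowest of 5 groups by GC content lay at a median of -0.54 log2 from their mean over days, against 0.068 to 0.18 in the later libraries. Counts of genes that differ from day 0 are therefore given for most lists also against day 1 or with the trend with GC content removed.

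A straight line of log2 expression over days was fitted to each of 12042 genes with sufficient counts (edgeR quasi-likelihood test, Benjamini-Hochberg adjusted p, threshold 0.05). In this test 426 genes rose (3.54%) and 674 fell (5.6%). The error of the fit is the departure of the 5 libraries from a line, not a spread between replicates. With library totals in place of TMM the split turned to 710 rising and 402 falling, with a median log2 ratio of day 4 to day 0 over the genes compared of 0.43 in place of 0.056. In limma on log2(TPM + 1) the split was 1606 to 519. List medians below are set beside that over all genes, and their direction was the same with TMM, DESeq2 size factors, library totals and TPM unless stated. Leaving out day 2, 3 or 4 left 0 genes past the adjusted threshold in edgeR (3124, 2399 and 3242 genes at an unadjusted p under 0.05, against 4151 with all days), so every call of the test depends on each of these libraries. Genes that were silent on the first days did not pass the count filter. For these the slope is given from a fit without that filter (19251 genes, of which 5.19% rose and 5.96% fell) and is named as the unfiltered fit. Ratios between 2 days have no test, and a gene was counted as 2-fold higher or lower where it had at least 5 CPM in either library. Orders of events between such genes or lists are descriptions of these 5 libraries.

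Most of the movement lay between day 0 and day 1. Of 11163 genes, 1611 (14.4%) were 2-fold higher on day 1 and 1238 (11.1%) 2-fold lower. With the GC trend removed the same step held 1068 higher (9.57%) and 1257 lower genes (11.3%). From day 1 to day 2, 3.16% of genes were 2-fold higher and 0.771% lower. The step to day 3 held 2.98% higher and 0.771% lower, and that to day 4 held 1.99% higher and 1.28% lower. Between the ends of the series, 2526 genes (21.4%) were 2-fold higher on day 4 and 1882 (16.0%) lower, against 1150 (9.97%) and 798 (6.92%) when day 4 was set against day 1. Of the genes higher on day 4, 70.1% made their largest step by day 1, and of those lower, 79.3%.

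**Figure D1:**
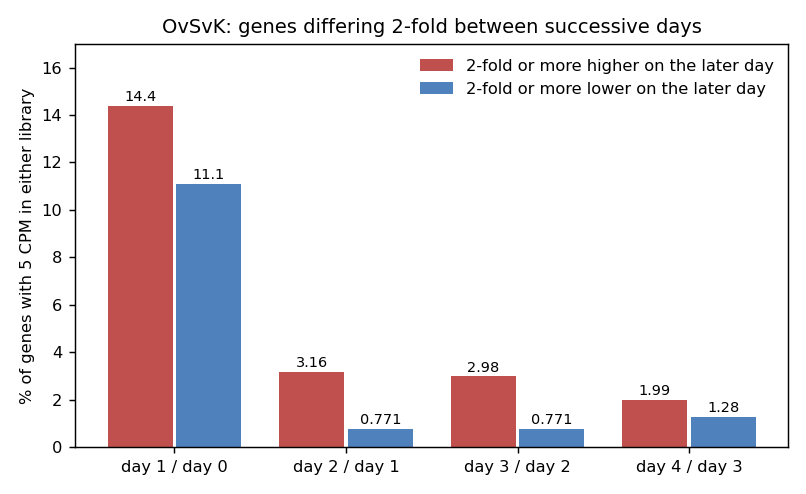
Share of genes (percent, vertical axis) that were 2-fold or more higher or lower on the later of 2 successive days, among genes with at least 5 CPM in either library, 1 library per day. The first step holds 14.4% higher and 11.1% lower genes and no later step exceeds 3.16%.

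The 3 introduced factors were transcribed at high levels on all days. Pou5f1 stood at 1104, 1438, 2029, 1792 and 1558 TPM on days 0, 1, 2, 3 and 4. Klf4 stood at 338, 481, 645, 669.9 and 411 TPM and Sox2 at 103, 160.4, 202, 184 and 134 TPM on the same days. Per transcript length, Pou5f1 was the most abundant of the 3 and Sox2 the least in every library, and all 3 were highest on day 2 or day 3. None of the slopes passed the test, at 0.033 (standard error 0.075, adjusted p = 0.774) for Pou5f1, -0.054 (standard error 0.11, adjusted p = 0.748) for Klf4 and -0.00065 (standard error 0.095, adjusted p = 0.996) for Sox2, in log2 per day. These slopes are from counts scaled with TMM and not from the TPM given above. Expected counts do not separate the introduced from the native transcripts of these genes, nor the fused from the unfused form. Myc, a growth-promoting factor that was not among those introduced, had 74.6, 40.3, 35.4, 23.7 and 22.8 CPM and fell, with a slope of -0.42 (standard error 0.07, adjusted p = 0.0342). Over these 4 genes the median log2 ratio of day 4 to day 0 turned with the scale, at -0.24 with TMM and 0.32 on TPM.

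Genes of the contractile apparatus of smooth muscle and activated fibroblasts were lower on day 4 without exception. All 12 of the list were 2-fold lower on day 4 than on day 0, and 8 of them were still 2-fold lower on day 4 than on day 1. Of 9 tested, 6 fell and none rose. Their median log2 ratio of day 4 to day 0 was -6.53, beside 0.13 for all detected genes, and every one of them made its largest step by day 1.

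Acta2, the smooth muscle actin that marks contractile fibroblasts, stood at 8716, 704, 126, 87.4 and 56.7 CPM on days 0 to 4. Each library lay below the one before, and the slope was -1.79 (standard error 0.29, adjusted p = 0.0338) log2 per day. Tagln, an actin-binding protein of smooth muscle, went from 3548 CPM on day 0 to 304 on day 1, 39.8 on day 2, 21.2 on day 3 and 12.3 on day 4, a 288-fold difference between the ends. Its slope, -2.05 (standard error 0.29, adjusted p = 0.0264), was the steepest fall among tested genes with a mean of at least 5 CPM. Myl9, a regulatory myosin light chain, had 889.8, 53.9, 11, 6.61 and 5.8 CPM and a slope of -1.85 (standard error 0.34, adjusted p = 0.0379). Actg2, a further smooth muscle actin, had 986, 122, 59.7, 28.1 and 11.3 CPM and a slope of -1.55 (standard error 0.16, adjusted p = 0.0183). The calponin gene Cnn1 (263, 10.2, 2.07, 0.588 and 0.704 CPM) and the leiomodin gene Lmod1 (149, 2.21, 0.74, 0.294 and 0.792 CPM) were close to absent from day 3 on. In the unfiltered fit their slopes were -2.61 (standard error 0.35, adjusted p = 0.0141) and -2.48 (standard error 0.51, adjusted p = 0.0353). Acta1, the skeletal actin, had 86.1, 5.96, 0.814, 1.03 and 0.176 CPM, with a slope of -2.29 (standard error 0.29, adjusted p = 0.0126) in the same fit. Acta1 belongs to a list of 16 skeletal muscle genes, of which 3 were 2-fold higher on day 4 than on day 0 and 2 lower. Over all genes 21.4% were higher and 16.0% lower.

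Genes of the extracellular matrix, the collagens, elastic fibres and cross-linking enzymes that fibroblasts secrete, were also mostly lower. Of 28 genes, 21 were 2-fold lower on day 4 than on day 0 and 16 were 2-fold lower than on day 1. In the test 12 of 26 fell and none rose. Fbln5, an elastic fibre protein, stood at 3439, 556, 113, 45.6 and 25.8 CPM, with a slope of -1.77 (standard error 0.18, adjusted p = 0.0183). Igfbp7, a secreted binding protein outside the list and among the 10 steepest falls, stood at 375, 89, 21.3, 10.4 and 6.77 CPM. Lox, which cross-links collagen and elastin, stood at 1892, 421, 107, 61.4 and 40.8 CPM, with a slope of -1.38 (standard error 0.16, adjusted p = 0.0207). Fbln5, Igfbp7 and Lox were each lower on every day than on the day before. The chain Col12a1 had 1717, 355, 115, 60.6 and 46.8 CPM and a slope of -1.29 (standard error 0.17, adjusted p = 0.0238). The main fibrillar collagen gene Col1a2 had 6978, 2176, 1141, 871 and 751 CPM and a slope of -0.78 (standard error 0.13, adjusted p = 0.0342), whereas Col1a1 (6622, 1745, 1039, 943 and 891 CPM) missed the threshold at an adjusted p of 0.0565.

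A few matrix genes were not lower on day 4. Lum and Dcn, small proteoglycans that bind collagen fibrils, were the 2 genes counted as 2-fold higher on day 4. Lum had 4.03, 22.3, 24, 34.5 and 33.9 CPM and Dcn 28.4, 124, 95, 75.3 and 68.4 CPM, both lowest on day 0, and neither passed the test (adjusted p = 0.133 and 0.83). Col3a1 had 1971, 4510.2, 2828, 1942 and 1119.9 CPM, highest on day 1. Col6a1 and Col6a3 kept within 238 to 557 CPM in all 5 libraries.

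Surface and cytoskeletal markers of fibroblasts had a median middle of the change at day 1.36 for the 10 genes that were 2-fold lower, against 0.832 for the contractile genes (the day at which log2 CPM crossed halfway between its day 0 and day 4 values). Of 15 tested, 7 fell. Thy1, the usual surface marker of embryonic fibroblasts, had 544, 138, 82.8, 73.6 and 59.3 CPM and a slope of -0.75 (standard error 0.15, adjusted p = 0.0441). The adhesion receptor Cd44 had 906, 686, 539, 392 and 279 CPM and a slope of -0.41 (standard error 0.045, adjusted p = 0.0183), and reached the middle of its change only at day 2.22. Vim, the mesenchymal intermediate filament, had 6276, 3966, 2799, 2252 and 1879 CPM and a slope of -0.42 (standard error 0.057, adjusted p = 0.0238). The labelled cell type thus showed its defining markers on day 0, and on day 4 Vim, Fn1 (8949.6, 3039.9, 2507, 2074 and 2042 CPM) and Col1a1 were still at 890 CPM or more. In bulk RNA, fewer cells of a type and less RNA per cell cannot be told apart.

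Markers of macrophages, a cell type that fibroblast cultures can hold, were at low levels. Their sum over 12 genes was 134, 112, 146, 119.6 and 104 CPM on days 0 to 4, most of it from Itgam (53.6, 41.4, 39.4, 32.3 and 31.8 CPM) and Laptm5 (25.9, 56.6, 92.7, 77.8 and 63.1 CPM). The defining marker Ptprc stayed at or under 0.962 CPM and Aif1 at or under 0.147 CPM. The lysozyme gene Lyz2 had 31.6, 3.12, 0.814, 0.808 and 0.792 CPM and fell with a slope of -1.47 (standard error 0.30, adjusted p = 0.047), and Adgre1 had 3.9, 0.397, 0.074, 0.0735 and 0.0879 CPM. The part of such cells in the results was not tested.

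TGF-beta, a secreted factor that drives matrix production and contractility, acts through Smad proteins on its target genes. Of 16 ligands and targets, 11 were 2-fold lower on day 4 than on day 0, 6 were 2-fold lower than on day 1, and 6 of 16 fell in the test. Thbs1, which activates latent TGF-beta, had 21701, 1339.8, 498, 324 and 233 CPM, with a slope of -1.59 (standard error 0.30, adjusted p = 0.0392). Inhba, the activin subunit, had 91.8, 41.2, 14.2, 8.82 and 4.05 CPM and fell at -1.12 (standard error 0.071, adjusted p = 0.0164). Ltbp2, which binds latent TGF-beta family proteins in the matrix, had 183, 15.9, 5.33, 3.67 and 1.58 CPM and fell at -1.72 (standard error 0.24, adjusted p = 0.0262). All 3 were lower on every day than on the day before. Smad7, the feedback inhibitor of the pathway, had 116, 14.8, 10.2, 8.45 and 13.4 CPM, with almost all of the difference between days 0 and 1, and did not pass (adjusted p = 0.109).

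Immediate early genes, which respond to serum and growth factors through AP-1 and related factors, differed mainly between days 0 and 1. Of 16 genes, 12 were 2-fold lower on day 1 than on day 0, and all 12 that were 2-fold lower on day 4 had made their largest step by then. Against day 1, 4 were 2-fold lower on day 4. Egr1 had 430.1, 63.3, 79.5, 34.1 and 17.8 CPM and Fos had 58.9, 17, 13.8, 7.64 and 5.01 CPM. Both fell, at -1.06 (standard error 0.17, adjusted p = 0.0324) and -0.84 (standard error 0.11, adjusted p = 0.0228). Fosl2 had 274, 40.7, 34.7, 28.1 and 30.9 CPM and Junb 105, 24.6, 32, 25.5 and 21.4 CPM, close to level from day 1 on, and neither passed (adjusted p = 0.0807 and 0.0936). Among BMP pathway genes, the target Id3 was lowest on day 1, at 228, 9.07, 13, 33.4 and 69.6 CPM, while Id1 stayed low from day 1 on, at 114, 14.7, 17.4, 18.1 and 19.4 CPM.

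**Figure D2:**
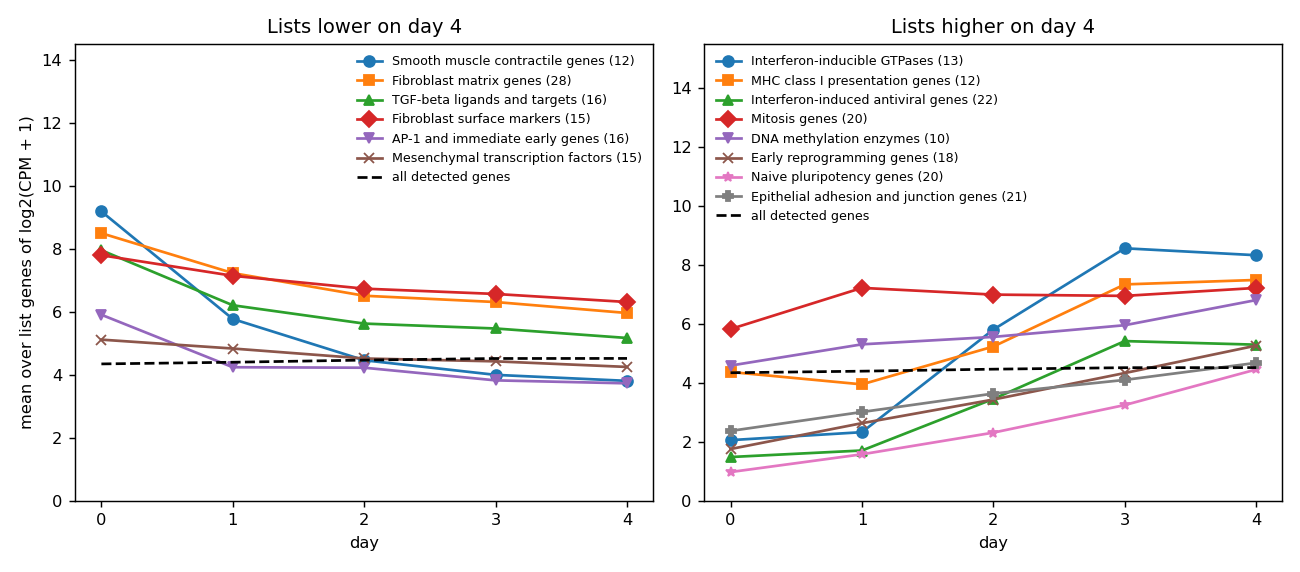
Mean over the genes of each list of log2(CPM + 1) (vertical axis) on days 0 to 4, 1 library per day, with the number of genes in parentheses and all detected genes as a dashed line. Left, the contractile list goes from 9.18 to 5.77 in the first step and to 3.81 by day 4. Right, mitosis genes step up by day 1, the GTPase list goes from 2.33 on day 1 to 8.57 on day 3, and pluripotency lists climb over all steps.

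Division genes were higher over the same step. Of 20 mitosis genes, 10 were 2-fold higher on day 1 than on day 0 (9 with the GC trend removed, 17 with library totals and 17 on TPM), beside 14.4% of all genes, and none was 2-fold higher or lower on day 4 than on day 1. Cenpf, a kinetochore protein, had 24.6, 169, 164, 182 and 231 CPM, and Mki67, the proliferation marker, 130, 753, 674, 598 and 560 CPM. The day 0 library was the low one in each case. The slope test called 0 of 20 in edgeR, with 2 at an unadjusted p under 0.05 and 1 rising in DESeq2, where 11.5% of all genes rose. The median log2 ratio of day 1 to day 0 over the list was 0.97 (0.98 with the GC trend removed), beside 0.029 for all detected genes.

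DNA replication genes showed the same step, with 11 of 22 counted as 2-fold higher on day 1, beside 14.4% of all genes (16 with library totals and 18 on TPM). Against day 1, 2 were higher and 1 lower on day 4. In the slope test 3 of 22 rose and 1 fell, beside 3.54% and 5.6% of all genes. Over days 1 to 4 alone 2 rose and 3 fell, beside 9.45% and 11.8% of all genes, and with library totals 0 fell. For some replication genes a further step came on day 4. Ung, which removes uracil from DNA, had 6.59, 15.2, 12.4, 19.1 and 38.8 CPM and rose at 0.54 (standard error 0.11, adjusted p = 0.0482). The licensing factor Cdt1 had 16, 35.2, 39.2, 52 and 75.6 CPM and rose at 0.50 (standard error 0.079, adjusted p = 0.0321). Mcm2, a subunit of the replicative helicase, had 85.7, 146, 142, 170.1 and 257 CPM and rose at 0.34 (standard error 0.068, adjusted p = 0.0438). Rrm1, a subunit of ribonucleotide reductase, had 559, 551, 371, 289.5 and 286 CPM and fell at -0.28 (standard error 0.059, adjusted p = 0.0481). The Cdk inhibitor gene Cdkn1a had 703, 511, 517, 444 and 386 CPM and did not pass (adjusted p = 0.0713), and 0 of 16 p53 targets and Cdk inhibitors passed in either direction in edgeR (7 at an unadjusted p under 0.05, and 1 rising and 4 falling in DESeq2).

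Most genes of pluripotency were higher on day 4, and they reached their levels on different days. Of 20 naive pluripotency genes, 14 were 2-fold higher on day 4 than on day 0, the same number were 2-fold higher than on day 1, and none was lower. Of 18 early reprogramming genes, 13 were 2-fold higher than on day 0 and 11 than on day 1. The median log2 ratio over detected genes was 6.52 in the naive list (5.41 with genes at 0 counts on day 0 set to their lower bound) and 4.73 in the early list (3.97). Only 6 naive and 10 early genes had the counts for the main test, in which 1 and 4 rose. In the unfiltered fit 12 of 20 and 11 of 18 rose and none fell.

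The earliest were already higher on day 1. Tdh, the threonine dehydrogenase of mouse embryonic stem cells, had 2.69, 31.4, 119, 212 and 305 CPM and rose at 1.51 (standard error 0.31, adjusted p = 0.0489). Tfcp2l1, a transcription factor of the naive network, had 1.88, 34.1, 63.6, 115 and 201 CPM and missed the threshold (adjusted p = 0.0615). The zinc finger gene Sall1 had 2.02, 10, 38.4, 107 and 141 CPM and rose at 1.53 (standard error 0.19, adjusted p = 0.0222). Zfp42, also called Rex1, had 1.08, 4.71, 14.3, 28.3 and 52.1 CPM and rose at 1.30 (standard error 0.13, adjusted p = 0.0183). Each of these 4 was higher on every later day than on the day before.

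Others first passed 3 CPM on day 2. Sall4, a partner of Oct4 in stem cells, had 0, 0.397, 16.4, 60 and 139 CPM. It was at 0 counts on day 0 and at least 346-fold higher on day 4, with a slope of 2.46 (standard error 0.37, adjusted p = 0.0185) in the unfiltered fit. Nr5a2, a nuclear receptor that can act on the Oct4 promoter, had 0, 0.227, 8.36, 22.1 and 33.1 CPM and was at least 82-fold higher on day 4 than on day 0. Nanog, a core factor of the network, had 0.672, 1.99, 9.77, 58.7 and 147 CPM and a slope of 2.06 (standard error 0.12, adjusted p = 0.00468) in the same fit. The RNA-binding protein gene Lin28a had 0, 0.284, 3.33, 20.9 and 95.6 CPM and was at least 237-fold higher on day 4. Nr5a2 had the lowest ratio of the 4 after day 3, at 1.49-fold from day 3 to day 4, against 2.33-fold for Sall4, 2.51-fold for Nanog and 4.58-fold for Lin28a.

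The latest were under 1 CPM until day 3. Esrrb, a nuclear receptor of the naive network, had 0.134, 0.17, 0.814, 13.3 and 84.3 CPM, with 1 count on day 0. Utf1, a chromatin protein of stem cells, had 0, 0, 0.222, 5.07 and 26.2 CPM. The Nodal co-receptor gene Tdgf1 was at 0 counts up to day 2 and had 3.6 CPM on day 3 and 39.2 CPM on day 4. Dppa5a had 0, 0, 0.074, 3.01 and 94.1 CPM, at least 233-fold higher on day 4 than on day 0. Its ratio of day 4 to day 3, 31.2-fold, was the largest of all named genes with at least 10 CPM, and its unfiltered slope was 4.89 (standard error 0.13, adjusted p = 0.000461). The germ line and early embryo factor Dppa3 had 0, 0, 0, 1.32 and 14.2 CPM and Dnmt3l, a cofactor of DNA methylation, 0, 0, 0, 0.514 and 9.32 CPM. Both had their largest step on day 4.

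A few members took another course. The growth factor gene Fgf4, a target of Oct4 and Sox2 in stem cells, had 16.8, 4.48, 2.07, 3.75 and 14 CPM, lowest on day 2 and on day 4 close to its day 0 level. Fut4, which makes the SSEA1 epitope, had 1.88, 0.851, 1.18, 0.808 and 1.32 CPM. Klf2 had 16.9, 6.07, 13.1, 21.7 and 29.6 CPM, lowest on day 1, and Nr0b1 0.403, 4.37, 19.5, 29.3 and 19.8 CPM, highest on day 3. None of these 4 passed (adjusted p = 0.897, 0.671 and 0.263 for Fgf4, Fut4 and Klf2 in the main fit, and 0.105 for Nr0b1 in the unfiltered one). Per length on day 4, Dppa5a was at 438 TPM, Nanog at 179.6, Sall4 at 80.2 and Esrrb at 59.

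**Figure D3:**
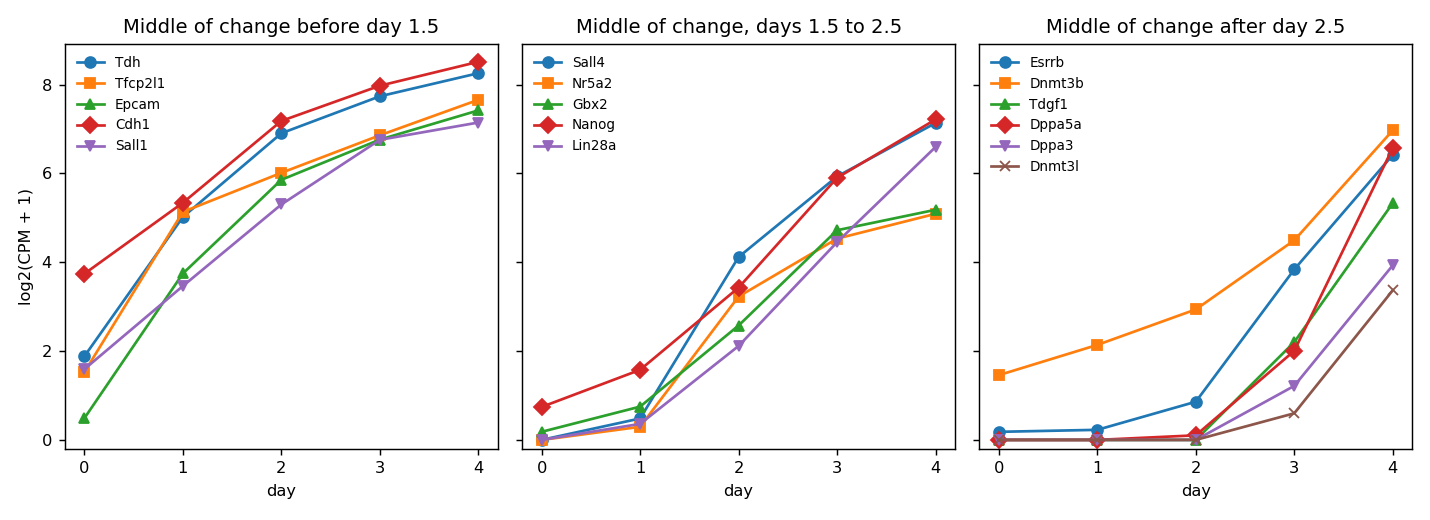
log2(CPM + 1) (vertical axis) of 16 pluripotency, epithelial and DNA methylation genes on days 0 to 4, 1 library per day, grouped by the day at which each gene crossed the middle of its change. Genes on the left are higher on each day than on the day before, Sall4 and Nanog in the middle reach 139 and 147 CPM on day 4, and Tdgf1, Dppa3 and Dnmt3l on the right are at 0 counts up to day 2.

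Many epithelial genes were higher by day 4 as well. Cdh1, the E-cadherin of epithelial junctions, had 12.4, 39.5, 144, 250.4 and 364 CPM and rose at 1.24 (standard error 0.16, adjusted p = 0.0238). Epcam, an epithelial adhesion protein, had 0.403, 12.4, 56.9, 107 and 170 CPM, with 3 counts on day 0, a ratio of 422 between day 4 and day 0 (95% counting interval 144 to 2046) and an unfiltered slope of 1.64 (standard error 0.34, adjusted p = 0.0356). Of 21 junction genes, 11 were 2-fold higher on day 4 than on day 0 and none lower. Against day 1, 8 were higher and 2 lower. Of the junction genes, 2 of 9 tested rose, and 12 of 21 rose in the unfiltered fit, beside 3.54% and 5.19% of all genes. Over days 1 to 4 alone 6 rose and 2 fell, beside 9.45% and 11.8% of all genes. The desmosomal cadherin gene Dsg2 (0.269, 0.907, 3.11, 12.1 and 55.8 CPM) and the claudin gene Cldn4 (0, 0.227, 1.55, 9.78 and 28.1 CPM) had their highest levels on day 4, with unfiltered slopes of 1.94 (standard error 0.089, adjusted p = 0.00371) and 2.30 (standard error 0.18, adjusted p = 0.00727). Desmoplakin (Dsp) was up early and then level, at 42.3, 172, 232, 249 and 235 CPM. Jup, shared by many junctions, had 441, 327, 356, 292 and 282 CPM.

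Regulators of the epithelial state were also higher. Of 18 regulators and keratins, 11 were 2-fold higher on day 4 than on day 0 (10 than on day 1), 3 of 6 tested rose, and 13 rose in the unfiltered fit. Esrp1, which directs epithelial splicing, had 0, 0.113, 0.74, 4.78 and 27.3 CPM and was at least 67.6-fold higher on day 4 than on day 0. The grainyhead factor genes Grhl3 (0.134, 3.18, 4.14, 9.7 and 21.1 CPM) and Grhl2 (0.269, 0.34, 2.89, 6.76 and 15.7 CPM) had unfiltered slopes of 1.17 (standard error 0.22, adjusted p = 0.029) and 1.57 (standard error 0.19, adjusted p = 0.0113). Krt8, a simple epithelial keratin, had 1.21, 4.88, 22.2, 42.9 and 49.2 CPM and rose at 1.32 (standard error 0.23, adjusted p = 0.0359). On the mesenchymal side, Snai1, a repressor of Cdh1, had 29.7, 4.99, 2.96, 2.43 and 2.99 CPM, with most of the drop by day 1, and did not pass (adjusted p = 0.0741). Of 15 mesenchymal transcription factors, 6 were 2-fold lower on day 4 than on day 0 and 1 higher, beside 16.0% and 21.4% of all genes. Against day 1, 1 was lower and 1 higher. In the main test 3 of 14 fell, beside 5.6% of all genes, and none rose. With library totals 2 fell, and in DESeq2 10 fell and 1 rose. Prrx1, a factor of limb mesenchyme, had 596, 285, 219, 201 and 149 CPM and fell at -0.45 (standard error 0.079, adjusted p = 0.0359). Zeb2 had 72.2, 100.4, 77.1, 89 and 84.3 CPM and did not pass (adjusted p = 0.778).

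Of 10 enzymes that set or remove DNA methylation, 6 were 2-fold higher on day 4 than on day 0 and 4 than on day 1, beside 21.4% and 9.97% of all genes. In the main test 2 of 9 rose, beside 3.54% of all genes. Dnmt3b, a de novo methyltransferase, had 1.75, 3.4, 6.66, 21.5 and 124 CPM and rose at 1.60 (standard error 0.15, adjusted p = 0.0183). Tet1, which oxidises methylcytosine, had 3.63, 5.39, 9.7, 29.3 and 124 CPM and rose at 1.32 (standard error 0.14, adjusted p = 0.0188). Both had their largest step from day 3 to day 4, where 1.99% of all genes were 2-fold higher. Tet2 had its largest step by day 1, at 9.68, 45.8, 63.2, 73.9 and 93.1 CPM, and the maintenance enzyme Dnmt1 was level after day 1, at 152, 354, 332, 308 and 324 CPM. In the Polycomb list 8 of 19 genes were 2-fold higher on day 4 than on day 0, beside 21.4% of all genes, and 2 were higher and 1 lower than on day 1. In the test 1 of 19 rose, beside 3.54% of all genes. This was Jarid2, with 25.9, 56.8, 107, 169 and 233 CPM and a slope of 0.79 (standard error 0.077, adjusted p = 0.0183). The core subunit Suz12 had 46.8, 191, 241, 288 and 313 CPM (adjusted p = 0.109).

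Some Wnt targets and metabolic genes were higher too. Tcf7, a factor of the Wnt pathway, had 4.17, 12, 20.7, 46 and 62.7 CPM and rose at 0.96 (standard error 0.094, adjusted p = 0.0183). Notum, a Wnt feedback inhibitor, had 0.403, 3.91, 9.4, 24.1 and 35.9 CPM, and Cdx1 0, 0, 1.11, 10.1 and 39.5 CPM. Of 14 Wnt targets, 9 were 2-fold higher on day 4 than on day 0 and 1 lower, beside 21.4% and 16.0% of all genes. In the main test 1 of 6 rose. In the unfiltered fit 6 of 14 rose and 1 fell, beside 5.19% and 5.96% of all genes. The glucose transporter gene Slc2a3 had 55.2, 87.6, 108, 164 and 579.8 CPM and rose at 0.80 (standard error 0.12, adjusted p = 0.0288), with its largest step on day 4. Of 17 genes of threonine and one-carbon metabolism, 7 were 2-fold higher on day 4 than on day 0 and 3 lower, beside 21.4% and 16.0% of all genes. In the main test 3 of 16 rose, beside 3.54% of all genes, and none fell. The 3 were Tdh, Gcat (12.2, 23.8, 29.9, 31.1 and 46 CPM), which acts after Tdh, and Mthfd1 (60.1, 101, 96.4, 130.2 and 202 CPM). In the unfiltered fit 4 rose and 1 fell, beside 5.19% and 5.96% of all genes, and in DESeq2 5 rose and 3 fell. In cholesterol synthesis Fdps had 316, 298, 229, 175 and 148 CPM and fell at -0.29 (standard error 0.048, adjusted p = 0.0328). Over days 1 to 4 alone, 13 of 20 genes of that list fell (11.8% of all genes did), against 2 over all days, and the list's median ratio of day 4 to day 0 was -0.40 with TMM and 0.036 on TPM.

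Most interferon-stimulated genes were low on days 0 and 1 and at much higher levels on days 3 and 4. Interferons are secreted antiviral signals. They act through receptors and transcription factors, Irf factors among them, on genes whose promoters carry interferon-stimulated response elements. All 13 measured interferon-inducible GTPases, which attack the membranes around intracellular pathogens, and all 22 antiviral genes were 2-fold higher on day 4 than on day 0, and all 35 were also 2-fold higher than on day 1. The median log2 ratio of day 4 to day 0 was 6.56 for the GTPases and 5.01 for the antiviral genes, beside 0.13 for all detected genes. Of the genes higher on day 4 in general 70.1% made their largest step by day 1, while none of the 22 antiviral genes and 1 of the 13 GTPases did.

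Promoter sequences are shown for 5 genes, because interferon signals are known to act through short elements close to the start. The 5 were chosen as examples that carry the element, not by their response, and the window of Oasl2, for one, has 0 matches. RefSeq windows (GRCm38.p6, which is mm10) run from 250 bases before to 50 after each annotated start and are written 5′ to 3′ on the gene's strand, in lower case. Capitals mark matches, on either strand, to the core of the interferon-stimulated response element, here taken as GAAA, any 2 bases and GAAA again. Igtp lies at chr11:58199306-58199605 (plus strand), Tgtp2 at chr11:49064163-49064462 (minus), Gbp2 at chr3:142620413-142620712 (plus), Isg15 at chr4:156200769-156201068 (minus) and Rsad2 at chr12:26456403-26456702 (minus).
Igtp: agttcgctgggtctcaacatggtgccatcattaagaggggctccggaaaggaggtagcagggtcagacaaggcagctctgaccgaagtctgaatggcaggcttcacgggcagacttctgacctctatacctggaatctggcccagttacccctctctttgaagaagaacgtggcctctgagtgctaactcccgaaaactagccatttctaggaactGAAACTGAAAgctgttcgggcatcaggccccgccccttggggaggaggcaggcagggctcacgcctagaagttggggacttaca
Tgtp2: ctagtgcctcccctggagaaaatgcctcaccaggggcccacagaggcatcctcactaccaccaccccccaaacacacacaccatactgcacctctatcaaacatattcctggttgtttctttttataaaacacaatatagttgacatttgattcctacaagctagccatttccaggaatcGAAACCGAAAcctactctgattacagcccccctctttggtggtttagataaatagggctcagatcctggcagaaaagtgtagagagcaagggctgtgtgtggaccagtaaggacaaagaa
Gbp2: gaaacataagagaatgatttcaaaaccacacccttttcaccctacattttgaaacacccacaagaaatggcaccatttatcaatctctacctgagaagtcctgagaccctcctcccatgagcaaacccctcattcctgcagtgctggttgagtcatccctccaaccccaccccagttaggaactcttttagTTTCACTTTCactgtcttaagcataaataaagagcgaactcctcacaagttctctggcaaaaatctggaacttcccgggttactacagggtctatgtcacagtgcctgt
Isg15: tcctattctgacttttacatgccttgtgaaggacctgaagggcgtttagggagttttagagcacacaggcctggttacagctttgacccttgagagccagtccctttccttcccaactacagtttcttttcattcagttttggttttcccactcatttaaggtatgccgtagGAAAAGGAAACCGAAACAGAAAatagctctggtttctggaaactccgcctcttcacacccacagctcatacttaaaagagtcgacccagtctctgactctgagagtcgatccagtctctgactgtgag
Rsad2: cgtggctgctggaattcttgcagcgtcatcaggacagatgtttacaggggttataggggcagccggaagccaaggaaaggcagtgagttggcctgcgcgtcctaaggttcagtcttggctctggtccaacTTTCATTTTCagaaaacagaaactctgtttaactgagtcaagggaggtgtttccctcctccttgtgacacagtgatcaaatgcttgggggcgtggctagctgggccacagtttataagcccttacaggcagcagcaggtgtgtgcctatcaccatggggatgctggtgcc

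The response element core was found in 3.44% of 32851 mouse promoter windows. It was in 8 of 10 windows of the GTPases (9 of the 13 genes have a window), in 8 of 17 windows of the antiviral genes (16 of 22 genes), in 5 of 16 windows of the sensors and regulators and in 2 of 12 of the class I presentation genes. The early and naive pluripotency lists held it in 0 of 20 and 0 of 15 windows. The contractile list held it in 0 of 10 and the immediate early list in 1 of 18. With 3.44% over all windows, lists of this size are too small to show a lower share. In Igtp it begins 34 bases before the start, in Gbp2 59 and in Tgtp2 70. Isg15 holds 3 overlapping matches, the first of which begins 78 bases before its start, and in Rsad2 the match begins at 120. Several of these genes are neighbouring family copies whose promoters are related, so the windows are not independent. A match is a description of the letters and was not tested for binding.

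Among the GTPases, Iigp1 had 0, 0.907, 39.1, 435 and 386 CPM, with 0 counts on day 0, and was at least 956-fold higher on day 4. Its unfiltered slope was 3.20 (standard error 0.59, adjusted p = 0.0274). Igtp had 1.88, 2.78, 72.4, 471 and 409 CPM and rose at 2.40 (standard error 0.47, adjusted p = 0.043). Tgtp1 had 2.02, 3.06, 98.6, 869 and 669 CPM and rose at 2.66 (standard error 0.54, adjusted p = 0.0465), the steepest rise of all tested genes with a mean of at least 5 CPM. Its near-identical neighbour Tgtp2 had 0.269, 1.36, 22.9, 485 and 523 CPM, with 2 counts on day 0 (ratio of day 4 to day 0 1947, 95% counting interval 539 to 16082), and the division of reads between them is uncertain. Gbp2, a guanylate-binding protein, had 4.97, 5.39, 67.3, 441 and 358 CPM and rose at 1.96 (standard error 0.38, adjusted p = 0.0415), and Gbp4 had 3.23, 4.71, 38.2, 380.2 and 318 CPM and rose at 2.09 (standard error 0.37, adjusted p = 0.036). Each of these except Tgtp2 was highest on day 3 and somewhat lower on day 4.

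In the main test 5 of 10 GTPases, 6 of 9 antiviral genes and 5 of 16 sensors and regulators rose, and none fell. In the fit over days 1 to 4 alone, where 9.45% of all genes rose, 0 GTPases (11 at an unadjusted p under 0.05), 3 antiviral genes and 1 sensor or regulator rose in edgeR. DESeq2 over all days called 10 GTPases and 9 antiviral genes. The unfiltered fit called 12 of 13, 17 of 22 and 8 of 18.

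Regulators of the response were higher as well, 12 of 18 by 2-fold on day 4. Irf1, a factor induced by interferon gamma, had 10.9, 10.9, 65.7, 158 and 130.2 CPM and rose at 1.13 (standard error 0.24, adjusted p = 0.0493). Zbp1, a sensor of Z-form nucleic acid, had 1.61, 3.06, 25.2, 174 and 134 CPM and rose at 1.98 (standard error 0.35, adjusted p = 0.0366). Irf7, the amplifier of the type I response, had 1.61, 1.93, 13.9, 50.4 and 33.9 CPM and missed the threshold (adjusted p = 0.0533). Irf9, a part of the complex that type I interferons activate, was 2-fold higher already on day 1, at 9.54, 25.1, 72.9, 95.4 and 79.7 CPM (adjusted p = 0.07). Irf3 had 35.3, 31, 31.2, 32.4 and 28.5 CPM, with all days within a narrow range. Of the antiviral genes, Oasl2 had 0.538, 2.04, 33.5, 239 and 209 CPM and Isg15 2.15, 1.3, 9.99, 60.3 and 52.9 CPM, and Isg15 rose at 1.54 (standard error 0.32, adjusted p = 0.0489).

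Transcripts of the interferons named here were scarce. Ifnb1, Ifna1, Ifna4, Ifna5, Ifnk and Ifne had 0 counts in all 5 libraries, which at 3 counts allows up to 0.403 CPM on day 0 and 0.170 to 0.264 CPM on the later days, and Ifna2 had 1 count, on day 2. Ifng, the gene of interferon gamma, had 0, 4, 20, 29 and 6 counts on days 0 to 4, or 0, 0.227, 1.48, 2.13 and 0.528 CPM, and no slope passed (unfiltered adjusted p = 0.348). Its count was highest on day 3. The receptor genes were expressed throughout, Ifnar1 at 93.4, 93.2, 99, 92.6 and 83.5 CPM and Ifngr1 at 32.4, 22.1, 20.1, 16.5 and 15.4 CPM, and neither passed (adjusted p = 0.694 and 0.0565). Among T and natural killer cell genes, chosen after their values were seen, Ncr1 and Gzmb were at 0 counts on all days and Cd3e at 1 count on day 4. Cd8a, Nkg7, Prf1 and Klrb1c, and the interferon genes Ifnl2 and Ifnl3, were looked at as well and are not given here.

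**Figure D4:**
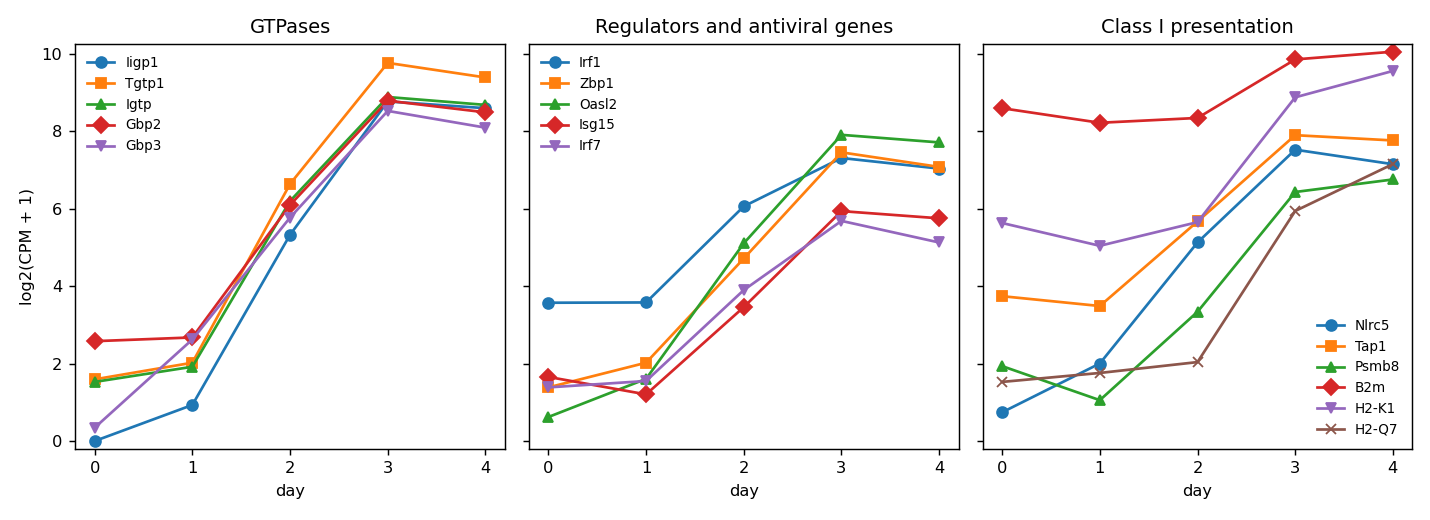
log2(CPM + 1) (vertical axis) of interferon-related genes on days 0 to 4, 1 library per day, in 3 panels for GTPases, regulators with antiviral genes, and class I genes, of which H2-Q7 lies outside the presentation list. GTPases go up from day 1 to day 3 and are close to level on day 4, while H2-K1 and H2-Q7 climb from day 2 on and are highest on day 4.

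Genes of antigen presentation reached their levels later. All 12 class I presentation genes were 2-fold higher on day 4 than on day 0 and than on day 1, with a median middle of the change at day 2.46 against 1.74 for the GTPases. In the main test 2 of 10 rose, beside 3.54% of all genes. The unfiltered fit called 7, DESeq2 10 and the fit over days 1 to 4 alone 9, beside 5.19%, 11.5% and 9.45% of all genes. With day 1 left out 0 rose. Nlrc5, the transactivator of class I genes, was the earliest of the named, at 0.672, 3.01, 34, 183 and 141 CPM. Tap1, a subunit of the peptide transporter, had 12.4, 10.2, 49.9, 237 and 216 CPM and rose at 1.30 (standard error 0.25, adjusted p = 0.0402). Psmb8, an immunoproteasome subunit, had 2.82, 1.08, 9.1, 85.3 and 107 CPM and rose at 1.72 (standard error 0.35, adjusted p = 0.0481). The class I heavy chain gene H2-K1 had 48.5, 31.9, 49.3, 469 and 752 CPM (adjusted p = 0.0572) and B2m, the light chain, 385, 297, 324, 924 and 1061 CPM (adjusted p = 0.0883). H2-Q7, a class I gene outside the list, had 1.88, 2.38, 3.11, 60.4 and 141 CPM and rose at 1.85 (standard error 0.30, adjusted p = 0.0321). Class I genes share long stretches, so the split of reads among H2-Q6, H2-Q7 and H2-K1 is uncertain.

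Chemokines that interferon gamma induces were lower still, and highest on day 4. Cxcl9 had 0, 0, 0.37, 3.38 and 8.62 CPM, Cxcl10 0.134, 0.0567, 0.814, 8.08 and 12.8 CPM and Cxcl11 0, 0.0567, 0.296, 4.63 and 5.63 CPM, with unfiltered slopes of 2.49 (standard error 0.32, adjusted p = 0.0129), 2.15 (standard error 0.32, adjusted p = 0.0184) and 2.20 (standard error 0.38, adjusted p = 0.0239). Class II genes were looked at after their values were seen. Ciita, the class II transactivator, had 0, 0, 0.222, 1.84 and 4.13 CPM and Cd74, the invariant chain, 0, 0.17, 0.074, 2.87 and 13.7 CPM (unfiltered adjusted p = 0.0174 and 0.0128). The class II chain gene H2-Aa had 2.82, 0.907, 0.296, 0.367 and 1.67 CPM and did not pass (0.624).

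Some genes were high only in the middle of the course. Of 11988 genes, 286 (2.39%) were 2-fold or more above both ends of the course on a day in between, and 229 (1.91%) were as far below. The former were highest on day 1 in 105 genes, on day 2 in 171 and on day 3 in 10. Rtl1, an imprinted gene of retrotransposon origin, had 9.27, 123, 183, 65.5 and 12.1 CPM. Dmrta1, a DM-domain factor, had 1.08, 29.6, 23.7, 10.8 and 1.76 CPM, and Rgs5, a regulator of G protein signalling, 5.24, 60.2, 47.8, 8.23 and 2.29 CPM. Npy2r, a neuropeptide Y receptor, had 1.08, 41.5, 56.5, 23 and 4.57 CPM. All 4 were lower on day 4 than on any of days 1 to 3.

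Other genes were high from day 1 to day 4 and belong to none of the pluripotency lists. Nefl, a neurofilament subunit, had 6.32, 374, 889, 535 and 289.8 CPM, the neuropeptide gene Trh 0.806, 111, 563, 609 and 449 CPM and Cnpy1 0.134, 38.2, 145, 227 and 142 CPM, highest on day 2 or day 3. Trh and Cnpy1 had the 2 largest named ratios of day 1 to day 0. Of 22 neural genes, 9 were 2-fold higher on day 4 than on day 0, beside 21.4% of all genes, and 7 were higher and 2 lower than on day 1. Several of them were at low levels, such as the neural factor gene Sox1 (0, 0.397, 1.41, 5.22 and 10.9 CPM) and Dcx (0.269, 0.851, 4.37, 9.48 and 16.1 CPM).

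Genes of the 2-cell embryo were at low levels that were highest on days 1 and 2. Zscan4f had 0.403, 2.95, 3.26, 0 and 0 CPM (3, 52, 44, 0 and 0 counts), Zfp352 0, 2.61, 2.44, 0.22 and 0.352 CPM and Tdpoz4 0.538, 3.35, 1.33, 0.22 and 0 CPM on days 0 to 4. Zscan4c, Zscan4d, Tcstv1 and Tcstv3 were also higher on days 1 and 2 than on any other day. All 7 lay below 5 CPM on every day, too low for any 2-fold count, while the list's other gene, the translation factor gene Eif1a, had 129.8, 186, 156, 155 and 161 CPM. The Zscan4, Tcstv and Tdpoz genes are families of near-identical copies, and the division of reads among them is uncertain.

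The genes that were low only in the middle had their minimum on day 1 in 156 cases, on day 2 in 61 and on day 3 in 12. Igfbp5 had 126, 20.8, 27.5, 61.3 and 151 CPM and Igfbp2, a second binding protein of insulin-like growth factors, 21.6, 6.07, 4.07, 11.2 and 35.3 CPM, both higher on day 4 than on day 0. Igf2 itself had 2025, 624, 289, 189 and 185 CPM and fell at -0.86 (standard error 0.14, adjusted p = 0.0332). In the same list of imprinted growth genes, Dlk1 had 87.9, 24.3, 7.4, 2.06 and 2.55 CPM and fell at -1.39 (standard error 0.17, adjusted p = 0.0222), while Meg3 had 120.4, 124, 225, 396 and 347 CPM and rose at 0.49 (standard error 0.096, adjusted p = 0.0442). Peg10 was higher on every day than on the day before, at 88.6, 717, 1425, 2455 and 3455 CPM, and missed the threshold (adjusted p = 0.0523).

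Signals and markers of the lineages of the embryo were present at low levels. In the Nodal pathway, which acts in the epiblast, 6 of 12 genes were 2-fold higher on day 4 than on day 0 and 2 lower. Over all genes 21.4% were higher and 16.0% lower. In the main test 1 of 6 fell, Furin (264, 181, 159, 139 and 100.2 CPM), beside 5.6% of all genes, and 0 rose. With library totals 0 fell. In the unfiltered fit 4 rose and 1 fell, beside 5.19% and 5.96% of all genes. Nodal itself had 0.134, 0.454, 2.44, 3.6 and 10.9 CPM, its inhibitor gene Lefty2 0, 0.227, 1.78, 1.32 and 16.3 CPM and the partner factor gene Foxh1 0.269, 0.113, 0.888, 5.73 and 20.3 CPM. All 3 were highest on day 4, and their unfiltered adjusted p was 0.0123, 0.0203 and 0.0106. Tfap2c, a factor of trophoblast and germ cells, had 0.941, 3.4, 16.4, 37.6 and 56.1 CPM and rose at 1.46 (standard error 0.18, adjusted p = 0.0216). The trophoblast factor gene Cdx2 had 0, 0, 0.148, 1.03 and 5.01 CPM and the mesoderm factor gene Eomes 0.672, 1.87, 5.62, 5.59 and 9.85 CPM.

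Hox genes, which hold the position of a cell along the body axis, and stress genes were mostly level from day 1 on. Of 15 Hox genes, 6 were 2-fold lower on day 4 than on day 0, and none was 2-fold lower than on day 1. With library totals or on TPM 1 was 2-fold lower than on day 0, and none fell with library totals. In the main test 1 of 14 fell, beside 5.6% of all genes. This was Hoxc8, with 55.4, 30.8, 25.7, 22.7 and 19.8 CPM and a slope of -0.34 (standard error 0.071, adjusted p = 0.0481). Nupr1, a stress-induced nuclear protein, had 158, 98.6, 65.6, 46.5 and 33.2 CPM and fell at -0.55 (standard error 0.045, adjusted p = 0.0182). The chaperone gene Hsph1 had 143, 199, 218, 234 and 322 CPM and rose at 0.26 (standard error 0.051, adjusted p = 0.0417), while Hsp90aa1 differed in 1 step, with 561, 2079, 1934, 1867 and 2109 CPM (adjusted p = 0.283). Of 8 oxidative stress genes none passed in edgeR (1 at an unadjusted p under 0.05, and 0 rising and 1 falling in DESeq2). In glycolysis Pgk1 had 1179.6, 889, 789.7, 588 and 554 CPM and fell at -0.27 (standard error 0.048, adjusted p = 0.0365), against the rise of the transporter gene Slc2a3.

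Among 10 of the lists described above, ordered by the median day at which their 2-fold different genes crossed the middle of the change, mitosis genes (day 0.535) came first, then immediate early genes (0.648), TGF-beta targets (0.814), contractile genes (0.832) and matrix genes (0.956). The early and naive pluripotency lists (1.63 and 1.66) and the GTPases and antiviral genes (1.74 and 1.83) followed, and class I presentation (2.46) was last. Of the lists left out of this order, heat shock genes had an earlier median than the mitosis genes, at day 0.506, and germline genes a later one than class I presentation, at 3.27 from 1 gene. Over all genes the median was day 0.769 for those higher and 0.831 for those lower on day 4. Times before day 1 rest on the day 0 library and on 1 interval, so the order within the first 5 lists is not resolved. The medians of the pluripotency, GTPase and antiviral lists also share 1 interval, from day 1 to day 2. The order among them is not resolved either. For genes with 0 counts on day 0 the middle of the change also depends on the prior count. The pluripotency lists were spread over the whole course, from day 0.431 for Upp1 to 3.34 for Dppa4, whereas the GTPases lay within days 1.3 to 2.14.

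**Figure D5:**
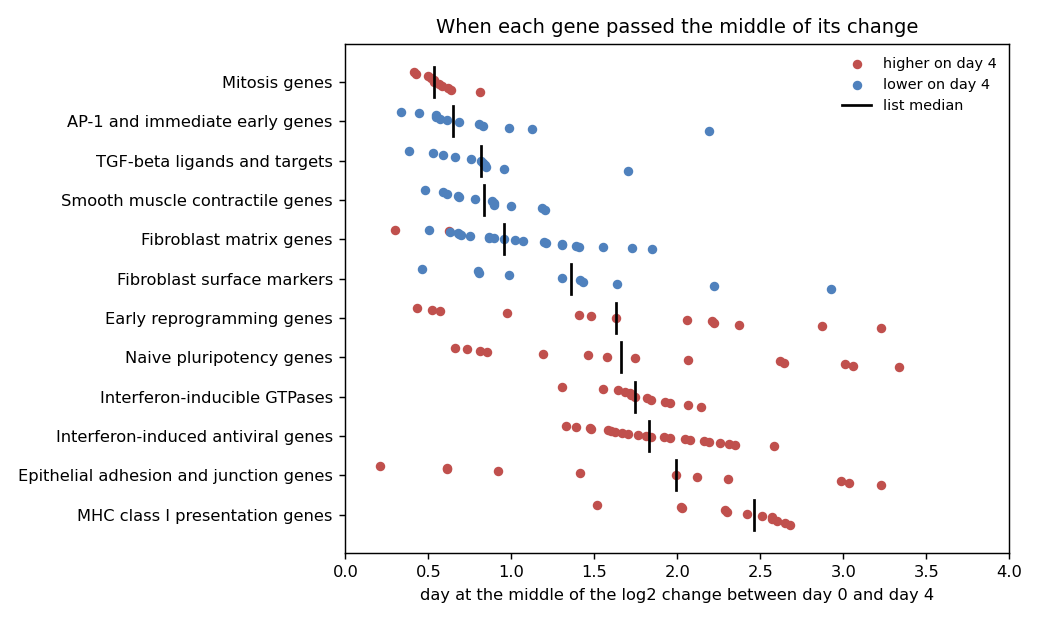
Day at which each gene of 12 lists crossed the middle of its log2 change between day 0 and day 4 (horizontal axis, days; genes 2-fold different between the ends, 1 point per gene; black bars, list medians). Mitosis and immediate early genes lie mostly before day 1, antiviral genes and GTPases between days 1 and 3 and class I presentation genes at a median of day 2.46, while pluripotency genes spread from before day 1 to after day 3.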

How the data were processed

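RNA of each library was extracted with Trizol and made into TruSeq libraries, per the labels' protocols. The authors estimated expression with RSEM 1.2.4 on the mm10 build, per the submitters' processing notes. Aligner, annotation release and strandedness: not given in the sources used here, so overlapping or antisense genes cannot be told apart. The deposited tables list 24130 genes with 2 measures, per the file headers: expected counts, in which RSEM divides multiply aligned reads between genes, and TPM, levels per transcript length with the same sum in every library. Rounded counts went into edgeR 4.0.16 (R 4.3.3), with limma 3.58.1 and DESeq2 1.42.0 for alternatives. Tables and plots were made in python 3.11.15 with pandas 2.3.3, numpy 2.4.6 and matplotlib 3.10.9. Slopes over days came from glmQLFit after filterByExpr, with 3 residual degrees of freedom. Ratios between days used TMM CPM with a prior count of 2. A count of 0 was given a limit of 3 counts, and intervals of ratios are 95% and cover counting error only. On simulated counts for 12042 genes the slope test recovered 50 of 50 genes at slopes of -1 and -0.5, 50 of 50 at 0.5 and 49 of 50 at 1, with 12 false calls. These figures hold for the simulated counts only. Most of the real movement lay in the first step and not along a line. The simulation therefore does not give the power of the test, or its rate of false calls, on the real libraries.

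The time course and the 46 gene lists (656 genes, 7 not matched) were chosen with earlier results of these data known. Genes were named by rule: the 3 factors, the 10 steepest slopes in each direction with a mean of at least 5 CPM, the 5 largest ratios per step and for day 4 against day 0 with at least 10 CPM, from each list as many as 8 genes with the largest ratio of day 4 to day 0, and the 6 largest transient rises and falls. B2m, Cd3e, Cd74, Ciita, Col1a1, Col1a2, Col3a1, Col6a1, Col6a3, Dcn, Dppa4, Dsp, Fn1, Fut4, Gzmb, H2-Aa, Irf3, Isg15, Itgam, Jup, Klf2, Lum, Ncr1, Nr0b1, Rsad2, Tcstv3, Upp1, Zeb2, Zfp42, Zscan4d and the interferon genes at 0 were chosen after their values were seen, as were the 5 promoters printed. Alternatives were another scaling, filter, tool, fold or minimum, removal of the trend with GC content, and leaving out each library.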

Additional observations from a re-analysis of the deposited data

How the results depend on the processing

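No paired analysis was possible because each day is 1 library. The slope test called 426 rising and 674 falling genes, against 425 and 716 with DESeq2 size factors and 622 and 804 in 1 model that also held the other arms (14 libraries). It called 710 and 402 with library totals, 999 and 1147 without the filter on low counts, 779 and 1093 with the GC trend removed, 1606 and 519 in limma on log2(TPM + 1), and 1387 and 1748 in DESeq2. Leaving out 1 library gave 0 to 1200 rising and 0 to 1497 falling genes, the 0 without day 2, 3 or 4 and the highest without day 0. The cause was not tested. Without day 0 the sign of 38 of 267 named slopes turned, and 7 of these passed the test there though not over all days. Their range over left-out libraries was -0.56 to 0.37 for Hspb1, -0.90 to 1.02 for Id3, -0.33 to 0.25 for Idi1, -0.14 to 0.54 for Mki67, -0.16 to 0.56 for Pola1, -0.41 to 0.89 for Scube3 and -0.49 to 0.54 for Trib3.

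Day 4 against day 0 gave 1080 higher and 653 lower genes at a fold of 4. Lower genes numbered 3147 at a fold of 1.5, 1095 on log2(TPM + 1) and 1212 with library totals. Against day 1, chosen after seeing the data, they were 1150 and 798. Steps to days 1, 2, 3 and 4 held 5158, 1124, 1072 and 1217 genes at a fold of 1.5 and 743, 99, 115 and 63 at a fold of 4. With a minimum of 1 CPM the last 3 held 906, 848 and 838. Largest steps ended on days 1 to 4 in 1162, 237, 211 and 123 genes at a fold of 4, on days 2 to 4 in 650, 613 and 569 with a minimum of 1 CPM, and in 737, 612 and 599 over days 1 to 4 only. Transient rises and falls numbered 52 and 21 at a fold of 4 and 477 and 452 with a minimum of 1 CPM, and falls numbered 137 on log2(TPM + 1). These counts shift by construction with the fold and the minimum.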
